A study of Mus musculus with 12 samples.

Results

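The nuclear genes for the subunits of oxidative phosphorylation were followed through RNA-seq libraries of mouse heart. They were taken by gene symbol: Nduf genes of the A, B, C, S and V series for complex I, the 4 Sdh genes for complex II, Uqcr genes and Cyc1 for complex III, Cox4 to Cox8 genes for complex IV and Atp5 genes for complex V, with Atp5s and Atp5sl left out. This gave 86 of the 17536 genes in the deposited table, 39 in complex I, 4 in complex II, 9 in complex III, 17 in complex IV and 17 in complex V. Membership was set by symbol alone, although the genes, lists and tests were chosen with earlier results of these data known. Of the 86 genes, 85 were among the 13489 genes with enough counts to be tested. Cox7b2, the testis isoform of subunit 7b, had 0 to 3 counts in each library and was not tested.

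The hearts were of 10-week-old ICR mice, which are outbred, and every group held 3 libraries. The AOS-FMT group carries the label B+AOS10mg/kg-FMT and the control-FMT group the label B+Con-FMT. The busulfan group received busulfan, an alkylating drug, at 20 mg/kg, and the control group is labelled control only. The series asks about FMT in hearts damaged by busulfan. AOS and FMT are not spelled out in the labels, which also give no busulfan dose for the FMT groups and do not say which chambers were taken. The labels do not state that the replicates are separate animals, so the p-values measure only the spread between these samples, which may be technical. Library totals were 11333647 to 14335702 estimated counts. Levels are given in CPM, which are counts per library size after TMM scaling. By this measure Myh6, a myosin of heart muscle, was at 36500 to 71900 CPM.

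Oxidative phosphorylation makes most of the ATP of the beating heart. Complex I and complex II pass electrons from NADH and succinate to ubiquinone, complex III passes them on to cytochrome c, and complex IV hands them to oxygen. The proton gradient built by complexes I, III and IV drives complex V, the ATP synthase. Heart mitochondria are dense with these complexes, and adult heart and skeletal muscle use their own isoforms of several complex IV subunits. Transcription factors such as NRF1, GABPA, YY1 and the oestrogen-related receptors (ERR) are known regulators of these genes. The 13 subunits of complexes I, III, IV and V that are encoded in mitochondrial DNA were not analysed here. Their genes were not found in the deposited table under the mt- symbols searched.

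Promoter windows from RefSeq on GRCm38.p6, 250 bases before to 50 bases after a gene's start, matched 69 of the 86 genes in 74 windows. The letters of 4 motifs were searched on both strands. GCATGCGC of NRF1 stood in 13.5% of these windows and in 2.71% of all 32851 windows. AAGATGGC of YY1 stood in 13.5%, against 2.75% of all windows, CCGGAAGT of GABPA in 6.76%, against 3.89%, and TCAAGGTCA of ERR in 2.70%, against 0.423%. A match in letters is a description and not a binding site. The windows of 6 genes are printed 5′ to 3′ on the gene's own strand with the matched letters in capitals. Cox8b is the muscle isoform and Cox8a the ubiquitous isoform of subunit 8, and Cox6a1 is the ubiquitous isoform of subunit 6a. Ndufb7, Uqcr11 and Atp5k had the smallest p of complexes I, III and V between AOS-FMT and busulfan hearts.
Cox8b (chr7:140900397-140900696, minus strand): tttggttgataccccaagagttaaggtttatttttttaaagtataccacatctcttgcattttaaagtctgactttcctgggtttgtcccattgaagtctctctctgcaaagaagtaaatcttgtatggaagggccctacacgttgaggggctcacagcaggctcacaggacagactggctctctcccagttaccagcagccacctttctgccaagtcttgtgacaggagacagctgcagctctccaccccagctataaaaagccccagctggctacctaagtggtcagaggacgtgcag
Cox8a (chr19:7217567-7217866, minus strand): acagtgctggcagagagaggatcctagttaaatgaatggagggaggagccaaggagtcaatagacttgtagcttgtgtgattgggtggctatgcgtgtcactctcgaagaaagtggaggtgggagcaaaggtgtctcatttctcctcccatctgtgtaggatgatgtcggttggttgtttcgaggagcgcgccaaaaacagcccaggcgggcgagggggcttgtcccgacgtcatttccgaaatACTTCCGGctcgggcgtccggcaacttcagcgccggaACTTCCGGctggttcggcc
Cox6a1 (chr5:115348909-115349208, minus strand): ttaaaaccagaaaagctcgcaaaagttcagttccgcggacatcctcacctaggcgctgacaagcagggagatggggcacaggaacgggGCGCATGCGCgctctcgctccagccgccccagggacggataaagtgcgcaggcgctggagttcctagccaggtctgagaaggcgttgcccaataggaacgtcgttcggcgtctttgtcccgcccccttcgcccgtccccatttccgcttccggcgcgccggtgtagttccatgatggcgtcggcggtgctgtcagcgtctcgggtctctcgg
Ndufb7 (chr8:83566508-83566807, plus strand): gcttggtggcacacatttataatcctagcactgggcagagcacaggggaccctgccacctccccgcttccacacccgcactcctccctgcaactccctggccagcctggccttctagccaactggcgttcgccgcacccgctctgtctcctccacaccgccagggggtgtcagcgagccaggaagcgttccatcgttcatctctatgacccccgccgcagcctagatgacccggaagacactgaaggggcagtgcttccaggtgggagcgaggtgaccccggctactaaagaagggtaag
Uqcr11 (chr10:80406772-80407071, minus strand): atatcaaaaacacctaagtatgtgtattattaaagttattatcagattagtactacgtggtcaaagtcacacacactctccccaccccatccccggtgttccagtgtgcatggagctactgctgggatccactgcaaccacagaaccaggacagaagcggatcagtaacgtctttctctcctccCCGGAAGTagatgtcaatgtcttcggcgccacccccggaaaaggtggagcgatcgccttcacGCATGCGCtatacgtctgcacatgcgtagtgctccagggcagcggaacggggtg
Atp5k (chr5:108434350-108434649, minus strand): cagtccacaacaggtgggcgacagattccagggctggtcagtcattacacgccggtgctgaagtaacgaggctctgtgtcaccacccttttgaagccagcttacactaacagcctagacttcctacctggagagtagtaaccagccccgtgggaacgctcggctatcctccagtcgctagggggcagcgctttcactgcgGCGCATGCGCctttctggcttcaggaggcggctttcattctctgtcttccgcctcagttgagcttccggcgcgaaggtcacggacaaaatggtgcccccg
The letters GCGCATGCGC in Cox6a1 and Atp5k hold the NRF1 letters on both strands, overlapping. Uqcr11 holds the letters of GABPA and NRF1 once each, and Cox8a holds those of GABPA 2 times on the opposite strand. Neither Cox8b nor Ndufb7 holds the letters of any of the 4 motifs in its window.

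The subunit genes were an abundant class in every library. They made up 17.52%, 13.95% and 16.41% of all TPM, the deposited scale that also corrects for gene length, in AOS-FMT hearts, 17.56%, 17.7% and 17.07% in control-FMT hearts, 18.85%, 18.82% and 18.3% in busulfan hearts, and 20.4%, 14.94% and 17.84% in control hearts. These are shares of the deposited table, where the mitochondrially encoded subunits were not found under the symbols searched. In these shares the busulfan libraries lay above all 6 FMT libraries, while the control libraries held both the highest value and one of the lowest. The split among complexes moved little. Complex IV held 33.8 ± 1.19% of the subunit TPM in AOS-FMT, 34.6 ± 0.603% in control-FMT, 35.3 ± 0.586% in busulfan and 33.9 ± 0.987% in control hearts (SD, n = 3 each). Complex II, with its 4 genes, held 1.60% to 1.74% by group.

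A score for the level of the 85 genes was taken as the mean of log2 CPM after subtracting each gene's mean over the 12 libraries. It was -0.09, -0.31 and -0.13 in AOS-FMT hearts, -0.01, -0.07 and -0.07 in control-FMT hearts, 0.18, 0.13 and 0.06 in busulfan hearts, and 0.45, -0.29 and 0.14 in control hearts, in the order of the replicates 1, 2 and 3. Each busulfan library was above each FMT library. AOS-FMT and control-FMT libraries did not overlap by a narrow margin, with AOS-FMT 1 at -0.086 and control-FMT 3 at -0.074. These 2 groups overlapped in summed CPM, at 55000 in AOS-FMT 1 and 54690 in control-FMT 3, and in the share of all TPM. Control libraries spread over nearly the whole range. Control 1 was the highest of all libraries for 77 of the 85 genes, and AOS-FMT 2 was the lowest for 43 and control 2 for 30. In 73 of the 85 genes the range of the control libraries enclosed all 3 busulfan libraries. These counts were taken for the 85 genes only, so there is no share over all genes to set beside them. The median ratio of the highest to the lowest library of a group was 1.24 in AOS-FMT, 1.12 in control-FMT, 1.19 in busulfan and 1.74 in control hearts.

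**Figure D1:**
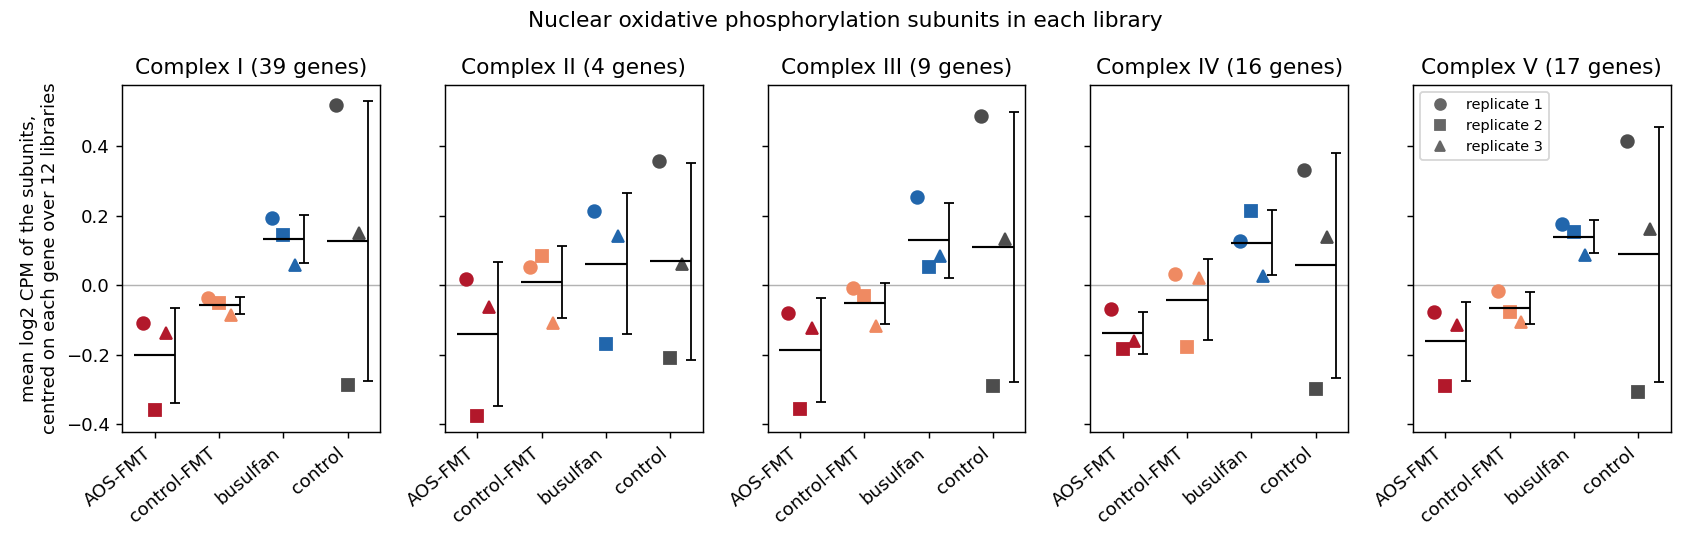
Mean centred log2 CPM of the subunits of each complex (y axis) in each library, by group (x axis). Lines and bars are group means ± SD over 3 libraries. The 3 busulfan libraries lie above all 6 FMT libraries in complexes I, III and V, and control 1 is the highest library in every complex.

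Of the 6 comparisons, that of AOS-FMT with busulfan hearts had the most subunit genes without overlap and the most at an unadjusted p under 0.05 with a lower level. The median log2 fold change of the 85 genes was -0.30, beside 0.00 over all 13489 genes, and 82 of the 85 were below 0. In 50 genes every AOS-FMT library was below every busulfan library, which was the case for 10.9% of all genes. An unadjusted p under 0.05 with a lower level was reached by 25 of the 85 genes and by 5.85% of all genes. That number moved with single libraries: it was 7 without busulfan 1, 8 without AOS-FMT 2, 12 without AOS-FMT 3, 14 without busulfan 2 and 46 without control 2. It was 11 without scaling beyond library size, 44 in a fit of the 6 libraries compared and 0 with 4 atrial markers (Bmp10, Myl7, Myl4 and Sln, averaged as log2 CPM) as a covariate. None of the 85 passed edgeR's quasi-likelihood test after Benjamini-Hochberg adjustment over all genes, where 0.0445% of all genes were called, and the smallest adjusted p was 0.279 for Cox6a2. DESeq2 called Cox6a2 alone, at an adjusted p of 0.0353, with 0.971% of all genes called, and limma-voom called 0. Without AOS-FMT 2, the lowest library, the median was -0.24, and without scaling beyond library size it was -0.17, beside 0.14 for all genes. With the atrial covariate it was -0.092. In bulk tissue, fewer cells of a type and less RNA per cell cannot be told apart.

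**Figure D2:**
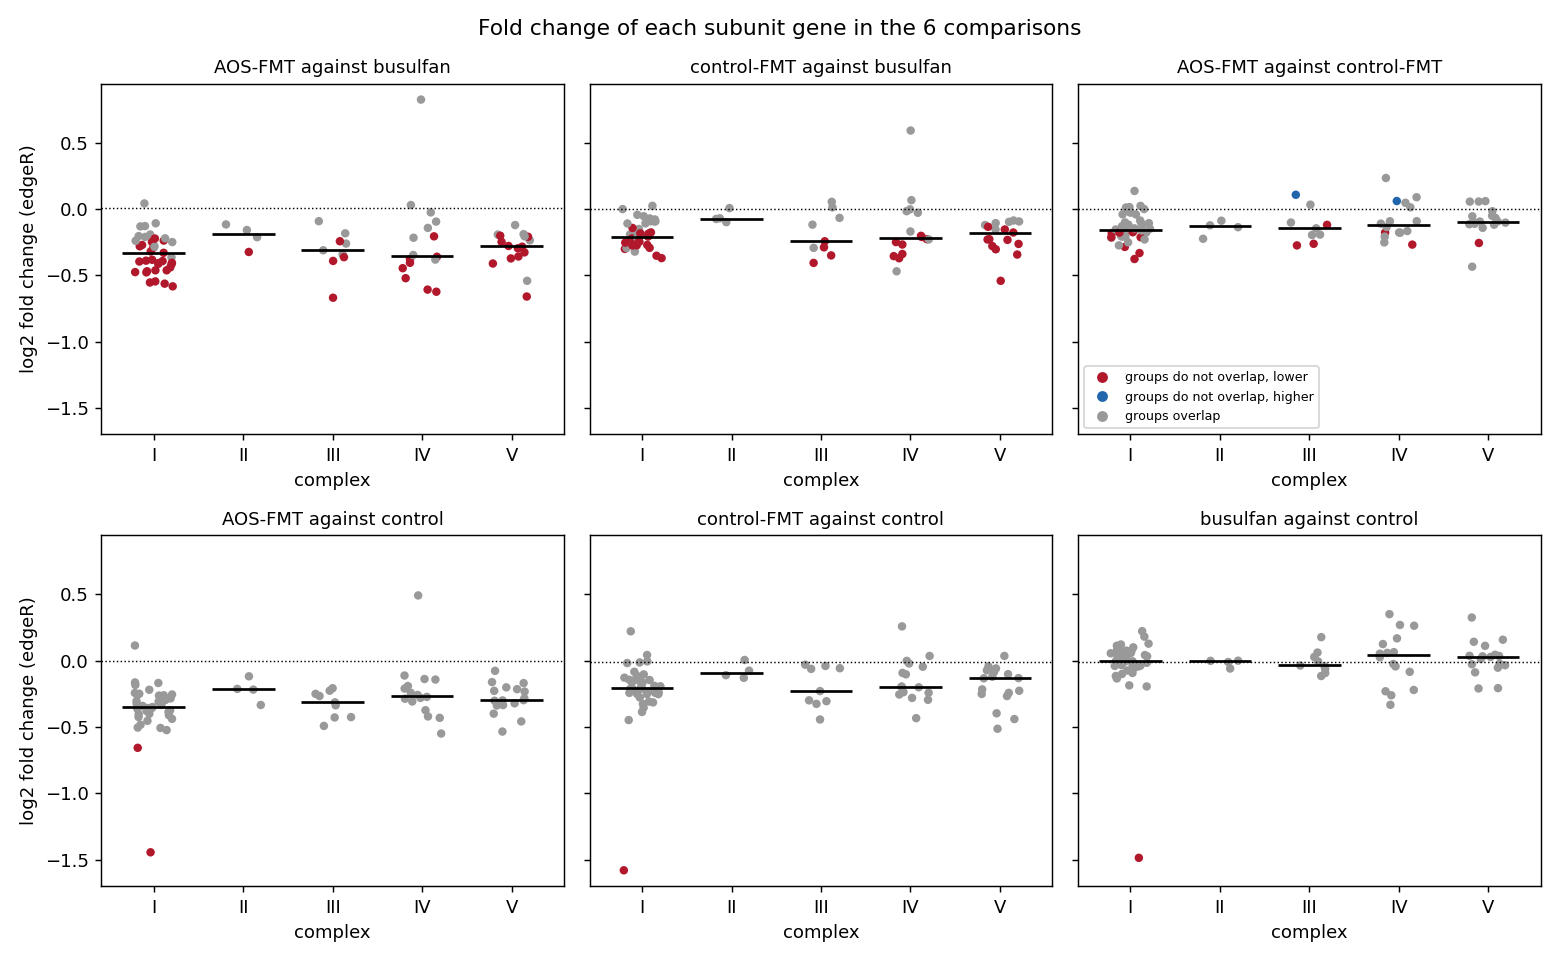
Log2 fold change (edgeR, y axis) of each subunit gene by complex (x axis) in the 6 comparisons, with the median of each complex as a line and the median of all genes tested dotted. Coloured points mark genes whose groups do not overlap. Between AOS-FMT and busulfan hearts 50 of 85 genes were lower without overlap, beside 10.9% of all genes, and the complex medians ran from -0.19 to -0.35. Between busulfan and control hearts 1 gene was lower without overlap, beside 6.38% of all genes.

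Complex I takes in electrons from NADH through a matrix arm and pumps protons in its membrane arm. Its 39 genes had a median log2 fold change of -0.33 in AOS-FMT against busulfan hearts, and 38 were below 0. The 7 genes of the conserved core had a median of -0.25, with 3 that did not overlap, and the other 32, which are accessory subunits and close relatives, a median of -0.37, with 23 that did not overlap. None of the 39 was called by edgeR, and 16 had an unadjusted p under 0.05 with a lower level. Over all genes, 10.9% were lower without overlap and 5.85% had such a p with a lower level.

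Ndufb7, an accessory subunit at the outer face of the membrane arm, had the smallest p of complex I in this comparison. Ndufb7 had 450.1, 428 and 445 CPM in AOS-FMT, 523, 508 and 503 CPM in control-FMT, 698, 711 and 574 CPM in busulfan and 805, 425 and 518 CPM in control hearts. All 3 AOS-FMT libraries were below all control-FMT and busulfan libraries, and control 1 was above every other library. The log2 fold change of AOS-FMT against busulfan hearts was -0.58 ± 0.19 (SE), with an adjusted p of 0.296. Ndufs6, an accessory subunit of the matrix arm, had the smallest p of complex I between AOS-FMT and control-FMT hearts. Ndufs6 was measured at 221, 158 and 219.5 CPM in AOS-FMT, 259, 241 and 277 CPM in control-FMT, 319.9, 283 and 282 CPM in busulfan and 381, 194 and 275 CPM in control hearts. Its AOS-FMT libraries did not overlap those of control-FMT or busulfan, with a log2 fold change of -0.38 ± 0.20 against control-FMT and an adjusted p of 0.797. Ndufc1, a small subunit of the membrane arm, had the smallest p of all subunit genes between AOS-FMT and control hearts. Ndufc1 stood at 168, 127 and 179 CPM in AOS-FMT, 168, 206 and 176 CPM in control-FMT, 228, 210.0 and 216 CPM in busulfan and 300.1, 182 and 266 CPM in control hearts. Every AOS-FMT library was below every control library, at a log2 fold change of -0.66 ± 0.18 and an adjusted p of 0.233. DESeq2 called it, at an adjusted p of 0.0321.

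Of the core genes, Ndufv1 carries the flavin that takes electrons from NADH. Ndufv1 was at 494, 369 and 418 CPM in AOS-FMT, 459, 492 and 467 CPM in control-FMT, 547, 463 and 502 CPM in busulfan and 564, 397 and 473 CPM in control hearts. AOS-FMT 2 was the lowest library, and the groups overlapped in every comparison. Ndufv2, the iron-sulfur partner of Ndufv1, did not overlap between AOS-FMT and busulfan hearts by a narrow margin. Ndufv2 had 558, 431 and 522 CPM in AOS-FMT, 588, 541 and 524 CPM in control-FMT, 635, 569.5 and 558 CPM in busulfan and 797, 474 and 619 CPM in control hearts. The log2 fold change was -0.22 ± 0.17, with an adjusted p of 0.548. Ndufs1 is the large iron-sulfur subunit. Ndufs1 was measured at 649.8, 454 and 613 CPM in AOS-FMT, 643, 620.0 and 649 CPM in control-FMT, 684, 515 and 681 CPM in busulfan and 728, 603 and 598 CPM in control hearts. Its groups overlapped in every comparison, AOS-FMT 2 and busulfan 2 were its lowest libraries, and AOS-FMT against busulfan gave -0.13 ± 0.16.

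Ndufs7 lies at the site where ubiquinone is reduced. Ndufs7 was at 421, 312 and 388 CPM in AOS-FMT, 446, 448 and 420.3 CPM in control-FMT, 548, 469 and 475 CPM in busulfan and 626, 341 and 445 CPM in control hearts. Ndufs7 did not overlap between AOS-FMT and busulfan hearts, at a log2 fold change of -0.41 ± 0.19 and an adjusted p of 0.36. Ndufs3 and Ndufs8 are further core subunits of the matrix arm, and Ndufs8 carries iron-sulfur clusters. Ndufs3 had 374, 300.3 and 392 CPM in AOS-FMT, 413, 398 and 393 CPM in control-FMT, 498, 389 and 412 CPM in busulfan and 573, 336 and 396 CPM in control hearts. Ndufs8 was measured at 255, 214 and 245 CPM in AOS-FMT, 304, 311 and 284 CPM in control-FMT, 353, 299.7 and 317 CPM in busulfan and 458, 255 and 286 CPM in control hearts. Ndufs8 in AOS-FMT hearts was below both control-FMT and busulfan hearts without overlap, with log2 fold changes of -0.33 ± 0.18 and -0.44 ± 0.18 and adjusted p of 0.797 and 0.325.

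Ndufa4 carries a complex I name, although its protein is now assigned to complex IV, and Ndufa4l2 is its relative induced by hypoxia. Ndufa4 stood at 881, 757 and 813 CPM in AOS-FMT, 833, 799 and 861 CPM in control-FMT, 958, 984 and 859 CPM in busulfan and 1284, 713 and 1189 CPM in control hearts. Ndufa4l2 was at 29.5, 33.0 and 37.4 CPM in AOS-FMT, 39.0, 32.8 and 36.0 CPM in control-FMT, 33.9, 42.5 and 31.4 CPM in busulfan and 33.9, 22.7 and 35.9 CPM in control hearts. On the TPM scale Ndufa4 was the most abundant of the 39, at 4996 ± 488 in AOS-FMT, 5061 ± 113 in control-FMT, 5121 ± 190 in busulfan and 5688 ± 1052 in control hearts (SD, n = 3 each). The TPM ratio of Ndufa4l2 to Ndufa4 was 0.0105, 0.0140 and 0.0144 in AOS-FMT hearts, 0.0149, 0.0122 and 0.0134 in control-FMT hearts, 0.0113, 0.0141 and 0.0117 in busulfan hearts, and 0.00824, 0.0101 and 0.00897 in control hearts. All 9 libraries of the other groups were above the 3 control libraries. The log2 ratio differed from control by 0.50 in AOS-FMT, 0.57 in control-FMT and 0.44 in busulfan hearts, each at a two-sided exact permutation p of 0.1, the smallest that 3 against 3 allows, and an adjusted p of 0.382 over the 42 ratio tests.

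Ndufb4b shares its name with Ndufb4, an accessory subunit, and reads of close relatives may have been split between them in counting. Ndufb4b had 1.17, 0.645 and 1.54 CPM in AOS-FMT, 0.627, 1.88 and 0.518 CPM in control-FMT, 0.435, 1.1 and 1.69 CPM in busulfan and 3.68, 2.05 and 3.41 CPM in control hearts. All control libraries were above all others. Its log2 fold change was -1.45 ± 0.54 in AOS-FMT, -1.58 ± 0.55 in control-FMT and -1.49 ± 0.54 in busulfan against control hearts, with adjusted p of 0.453, 0.464 and 0.351. These 3 comparisons share the control libraries.

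Complex II is succinate dehydrogenase, an enzyme of the citric acid cycle as well as of the respiratory chain. Its median log2 fold change in AOS-FMT against busulfan hearts was -0.19, with 4 of 4 genes below 0 and 0 called. An unadjusted p under 0.05 with a lower level was reached by 0 of the 4, beside 5.85% of all genes. Sdha carries the flavin that oxidises succinate. Sdha was measured at 917, 692 and 898 CPM in AOS-FMT, 940.2, 904 and 885 CPM in control-FMT, 992, 693 and 1032 CPM in busulfan and 1053, 862 and 804 CPM in control hearts. Busulfan 2 and AOS-FMT 2 were the lowest and near each other, so the groups overlapped. Sdhb, the iron-sulfur subunit, had the smallest p of complex II. Sdhb stood at 863, 672 and 817 CPM in AOS-FMT, 912, 978 and 859 CPM in control-FMT, 1086, 868 and 991 CPM in busulfan and 1259, 737 and 969 CPM in control hearts. AOS-FMT and busulfan libraries did not overlap by a narrow margin, at a log2 fold change of -0.32 ± 0.18 and an adjusted p of 0.417. Sdhc and Sdhd anchor the enzyme in the inner membrane. Sdhc was at 498, 354 and 444 CPM in AOS-FMT, 484, 501 and 441 CPM in control-FMT, 577, 416 and 510.1 CPM in busulfan and 583, 394 and 526 CPM in control hearts. Sdhd had 334, 268 and 321 CPM in AOS-FMT, 349, 357 and 276 CPM in control-FMT, 363, 313 and 354 CPM in busulfan and 434, 279 and 361 CPM in control hearts. Both overlapped between the groups in every comparison. The complex II score of busulfan 2 was -0.17, against 0.21 and 0.14 in the other busulfan libraries.

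Complex III moves electrons from ubiquinol to cytochrome c. All 9 genes were below 0 in AOS-FMT against busulfan hearts, with a median log2 fold change of -0.31 and 0 called. Of these, 4 were lower without overlap, beside 10.9% of all genes. An unadjusted p under 0.05 with a lower level was reached by 1, beside 5.85% of all genes. The median was -0.25 for Cyc1, Uqcrfs1, Uqcrc1 and Uqcrc2, of which 0 were without overlap, and -0.36 for the 5 small subunits, of which 4 were without overlap. Uqcr11, a small accessory subunit, had the lowest log2 fold change of all 85 genes in this comparison. Uqcr11 was measured at 529, 499 and 503 CPM in AOS-FMT, 639, 589.6 and 608 CPM in control-FMT, 795, 903 and 737 CPM in busulfan and 1038, 488 and 627 CPM in control hearts. Every AOS-FMT library was below every control-FMT library, and every control-FMT library was below every busulfan library. AOS-FMT against busulfan gave -0.67 ± 0.21, with an adjusted p of 0.295, and control-FMT against busulfan -0.41 ± 0.21, with an adjusted p of 0.999.

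Uqcrfs1 is the Rieske iron-sulfur protein and Cyc1 is cytochrome c1, the catalytic pair encoded in the nucleus. Uqcrfs1 stood at 753, 570.4 and 748 CPM in AOS-FMT, 818, 829.6 and 726 CPM in control-FMT, 940.2, 633 and 780.4 CPM in busulfan and 968, 655 and 799.7 CPM in control hearts. Cyc1 was at 773, 575 and 759 CPM in AOS-FMT, 832, 867 and 709 CPM in control-FMT, 1023, 719 and 871 CPM in busulfan and 1043, 679 and 783 CPM in control hearts. In both genes busulfan 2 lay within the range of the FMT libraries, below the other 2 busulfan libraries. Uqcrc1 and Uqcrc2 are the large core proteins. Uqcrc1 had 1603, 1164 and 1440.4 CPM in AOS-FMT, 1748, 1726 and 1615 CPM in control-FMT, 2042, 1415 and 1876 CPM in busulfan and 2241, 1376 and 1613 CPM in control hearts. Uqcrc2 was measured at 964, 727 and 935 CPM in AOS-FMT, 972, 984 and 949.5 CPM in control-FMT, 1053, 719 and 1027 CPM in busulfan and 1197, 890.3 and 945 CPM in control hearts. The score of these 4 genes was -0.25 in busulfan 2, against 0.29 and 0.13 in the other busulfan libraries. Uqcrb, which helps to form the ubiquinone site, had the smallest p of complex III between AOS-FMT and control hearts. Uqcrb stood at 658, 455 and 597 CPM in AOS-FMT, 609, 598 and 628 CPM in control-FMT, 781, 740.1 and 722 CPM in busulfan and 930.2, 544 and 826 CPM in control hearts. Its log2 fold change there was -0.43 ± 0.18, with an adjusted p of 0.533 and overlapping groups. Uqcrh, the hinge protein at the cytochrome c1 side, had the smallest p between control-FMT and control hearts. Uqcrh was at 377, 382 and 364 CPM in AOS-FMT, 353, 342 and 349 CPM in control-FMT, 453, 478 and 399 CPM in busulfan and 625, 316 and 477 CPM in control hearts. Its AOS-FMT libraries were above its control-FMT libraries without overlap, at a log2 fold change of 0.11 ± 0.19 and an adjusted p of 0.925, while against control hearts control-FMT gave -0.44 ± 0.19 with an adjusted p of 0.561.

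Complex IV, cytochrome c oxidase, has a catalytic core from mitochondrial DNA and nuclear subunits around it. Of its 16 tested genes, 14 were below 0 in AOS-FMT against busulfan hearts, and edgeR called 0. The median log2 fold change was -0.35. Without overlap, 8 of the 16 were lower, beside 10.9% of all genes. An unadjusted p under 0.05 with a lower level was reached by 5, beside 5.85% of all genes. Cox6a2, the muscle isoform of subunit 6a, was the most abundant of all 86 genes on the TPM scale, at 10913 ± 1788 in AOS-FMT, 12853 ± 931 in control-FMT, 15298 ± 826 in busulfan and 11449 ± 1543 in control hearts (SD, n = 3 each). Cox6a2 had 3689, 2820.2 and 2881 CPM in AOS-FMT, 3969, 3359.6 and 3856 CPM in control-FMT, 5086, 4584 and 4804 CPM in busulfan and 4890.5, 3014 and 3441 CPM in control hearts. All 6 FMT libraries were below all 3 busulfan libraries, and control 1 was near the busulfan level. AOS-FMT against busulfan gave -0.62 ± 0.18 with an adjusted p of 0.279, control-FMT against busulfan -0.37 ± 0.18 with 0.999, and busulfan against control 0.35 ± 0.18 with 0.495.

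Cox8b and Cox7a1 are the muscle isoforms of subunits 8 and 7a. Cox8b was measured at 550.5, 450.4 and 481 CPM in AOS-FMT, 605, 587 and 593 CPM in control-FMT, 758, 809 and 691 CPM in busulfan and 986, 485 and 697 CPM in control hearts. Cox7a1 stood at 800.3, 525 and 651 CPM in AOS-FMT, 767, 684 and 785 CPM in control-FMT, 883, 993 and 817 CPM in busulfan and 1287, 561 and 797 CPM in control hearts. Cox8b was lower in AOS-FMT than in control-FMT and lower in control-FMT than in busulfan hearts, each time without overlap. Its log2 fold change of AOS-FMT against busulfan was -0.61 ± 0.20, with an adjusted p of 0.296, and that of AOS-FMT against control, the smallest p of complex IV there, was -0.55 ± 0.20 with an adjusted p of 0.434. Cox7a1 gave -0.45 ± 0.25 between AOS-FMT and busulfan hearts, with an adjusted p of 0.415.

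The ubiquitous isoforms Cox6a1, Cox7a2 and Cox8a stand in most other tissues in the place of these subunits. Cox6a1 was at 135, 159 and 149 CPM in AOS-FMT, 159, 149.7 and 164 CPM in control-FMT, 165, 156 and 152 CPM in busulfan and 191, 136 and 161 CPM in control hearts. Cox8a had 279, 295 and 309 CPM in AOS-FMT, 290.0, 267 and 297 CPM in control-FMT, 288, 279.8 and 297 CPM in busulfan and 405, 260.4 and 343 CPM in control hearts. Cox7a2 was measured at 343, 326 and 329.6 CPM in AOS-FMT, 319, 315 and 324 CPM in control-FMT, 369, 397 and 337 CPM in busulfan and 524, 272 and 497 CPM in control hearts. The libraries of AOS-FMT and busulfan hearts overlapped in all 3 genes, at log2 fold changes of -0.10 ± 0.12 for Cox6a1, -0.14 ± 0.19 for Cox7a2 and 0.03 ± 0.14 for Cox8a. For Cox7a2 the AOS-FMT libraries were above the control-FMT libraries without overlap, at 0.06 ± 0.19 with an adjusted p of 0.963. Control-FMT against control gave -0.43 ± 0.19 for Cox7a2, with an adjusted p of 0.587 and overlapping groups.

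**Figure D3:**
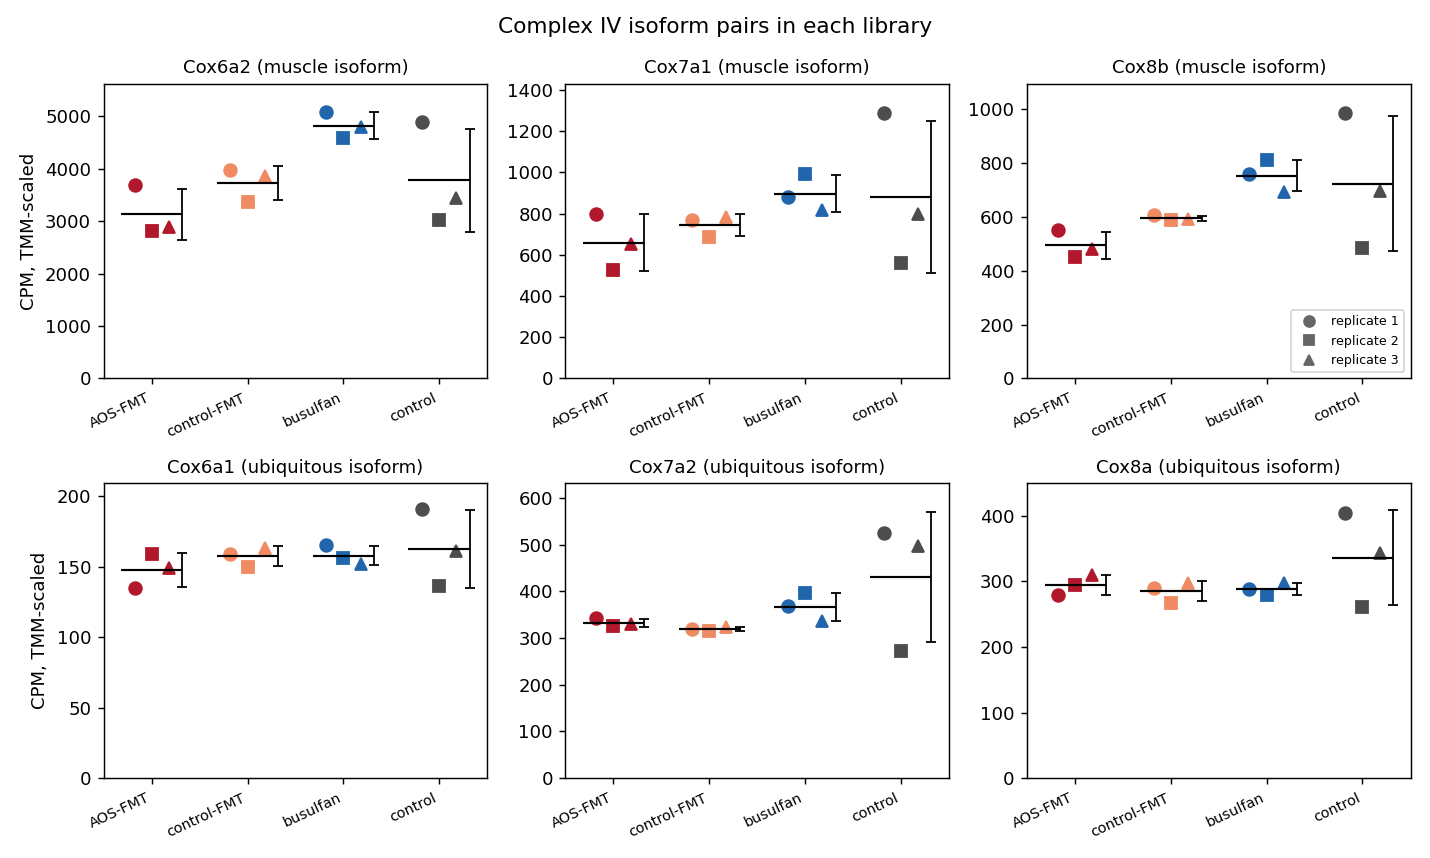
CPM (y axis) of the muscle isoforms (upper row) and ubiquitous isoforms (lower row) of complex IV subunits 6a, 7a and 8 in each library, by group (x axis). Lines and bars are means ± SD over 3 libraries. The AOS-FMT libraries lie below the busulfan libraries in Cox6a2, Cox7a1 and Cox8b and overlap them in Cox6a1, Cox7a2 and Cox8a.

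Ratios within a library do not depend on a scaling factor between libraries, although TPM and CPM can give different ratios. The TPM ratio of Cox6a1 to Cox6a2 was 0.0486, 0.0743 and 0.0686 in AOS-FMT hearts, 0.0529, 0.0600 and 0.0559 in control-FMT hearts, 0.0429, 0.0448 and 0.0417 in busulfan hearts, and 0.0518, 0.0596 and 0.0629 in control hearts. All busulfan libraries were below all 9 others. The log2 ratio was 0.54 higher in AOS-FMT and 0.38 higher in control-FMT than in busulfan hearts, and -0.43 in busulfan against control hearts, each at a two-sided exact permutation p of 0.1 and an adjusted p of 0.382. The ratio of Cox8a to Cox8b was 0.172, 0.230 and 0.216 in AOS-FMT hearts, 0.168, 0.142 and 0.176 in control-FMT hearts, 0.133, 0.126 and 0.152 in busulfan hearts, and 0.138, 0.187 and 0.153 in control hearts. AOS-FMT libraries were above busulfan libraries without overlap, at a log2 difference of 0.59 and the same exact p of 0.1 and adjusted p of 0.382. The ratio of Cox7a2 to Cox7a1 was 0.0828, 0.126 and 0.0971 in AOS-FMT hearts and 0.0837, 0.0844 and 0.0838 in busulfan hearts, which overlapped, with a log2 difference of 0.26 and an exact p of 0.4. Taken from CPM instead, the same ratio did not overlap, at a log2 difference of 0.32, an exact p of 0.1 and an adjusted p of 0.323. Over 7 ratios and 6 comparisons, 11 of the 42 tests reached the smallest possible exact p of 0.1, and the smallest adjusted p was 0.382. From CPM 13 of 42 did.

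Cox4i1, the common isoform of subunit 4, and Cox5a and Cox5b, which sit at the matrix side, were also low in AOS-FMT hearts. Cox4i1 stood at 1293, 1075 and 1214 CPM in AOS-FMT, 1387, 1365 and 1300.1 CPM in control-FMT, 1665, 1615 and 1466 CPM in busulfan and 1855, 1032 and 1464 CPM in control hearts. Cox5a was at 673, 517 and 675 CPM in AOS-FMT, 769, 719 and 668 CPM in control-FMT, 916, 818 and 691 CPM in busulfan and 850.0, 607 and 700.5 CPM in control hearts. Cox5b had 726, 587 and 679 CPM in AOS-FMT, 832, 675 and 729 CPM in control-FMT, 1016, 991 and 855 CPM in busulfan and 1001, 649 and 733 CPM in control hearts. The AOS-FMT libraries of all 3 genes were below the busulfan libraries, at log2 fold changes of -0.41 ± 0.18, -0.38 ± 0.16 and -0.52 ± 0.17 and adjusted p of 0.346, 0.335 and 0.295. Cox5b had the smallest p of complex IV between control-FMT and busulfan hearts, at -0.36 ± 0.17 and an adjusted p of 0.999. Cox4i2, an isoform known from lung and from low oxygen, was present at a low level. Cox4i2 was measured at 17.9, 17.2 and 16.1 CPM in AOS-FMT, 21.6, 15.8 and 20.4 CPM in control-FMT, 18.7, 22.1 and 18.2 CPM in busulfan and 23.5, 12.4 and 20.6 CPM in control hearts. Its TPM ratio to Cox4i1 was 0.0116 to 0.0165 over the 12 libraries, with an exact p of 0.2 or more in every comparison.

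Cox6b1 is the common isoform of subunit 6b. Cox6b1 stood at 699.7, 579.7 and 612 CPM in AOS-FMT, 712, 674 and 656 CPM in control-FMT, 805, 896 and 729 CPM in busulfan and 1035, 545 and 762 CPM in control hearts. AOS-FMT and control-FMT libraries were below the busulfan libraries, at -0.36 ± 0.19 and -0.25 ± 0.19 with adjusted p of 0.399 and 0.999. Cox6b2, its testis isoform, had at most 1.68 CPM in any library. Cox6b2 was at 0.587, 1.68 and 0.585 CPM in AOS-FMT, 1.1, 0.327 and 1.04 CPM in control-FMT, 0.435, 0.509 and 0.677 CPM in busulfan and 0.0856, 0.988 and 0.952 CPM in control hearts. Its log2 fold changes were the highest of the 85 genes in 5 of the 6 comparisons, as in AOS-FMT against busulfan at 0.83 ± 0.70, and its groups overlapped in all of them. Cox7a2l, a factor of supercomplex assembly, carries a subunit name. Cox7a2l had 131, 147 and 158 CPM in AOS-FMT, 141, 162 and 162 CPM in control-FMT, 153, 144 and 147 CPM in busulfan and 215, 134 and 183 CPM in control hearts. Outside the control group its libraries lay between 131 and 162 CPM. AOS-FMT against busulfan gave -0.03 ± 0.15, with an adjusted p of 0.952. Cox7b had the lowest log2 fold change of complex IV between control-FMT and busulfan hearts. Cox7b was measured at 933, 677 and 705 CPM in AOS-FMT, 697, 597 and 883 CPM in control-FMT, 778, 1542 and 696 CPM in busulfan and 1032, 622 and 846 CPM in control hearts. Busulfan 2 was the highest of the 12 libraries, and the other 2 busulfan libraries lay within the FMT range. The log2 fold change was -0.47 ± 0.29, with an adjusted p of 0.999.

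Complex V makes ATP in its F1 head as protons turn a ring of c subunits in the membrane. All 17 genes were below 0 in AOS-FMT against busulfan hearts, with a median log2 fold change of -0.28 and 0 called. Of the 17, 11 were lower without overlap, beside 10.9% of all genes. An unadjusted p under 0.05 with a lower level was reached by 3, beside 5.85% of all genes. Atp5a1 and Atp5b encode the alpha and beta subunits, and beta carries the catalytic sites. Atp5a1 stood at 4257, 3275 and 4195 CPM in AOS-FMT, 4241, 4251 and 4104 CPM in control-FMT, 4784, 4007 and 4585 CPM in busulfan and 5131, 3955 and 4029 CPM in control hearts. Atp5b was at 5417, 4446 and 5146 CPM in AOS-FMT, 5414, 5627 and 5214 CPM in control-FMT, 6525, 5143 and 6017 CPM in busulfan and 6827, 4922 and 5503 CPM in control hearts. Both genes overlapped between the groups in all 6 comparisons, at -0.19 ± 0.15 and -0.24 ± 0.16 for AOS-FMT against busulfan hearts. Atp5k, subunit e of the membrane part where synthase dimers meet, had the smallest p of complex V against busulfan hearts in both FMT groups. Atp5k had 95.7, 89.3 and 81.5 CPM in AOS-FMT, 110.1, 82.0 and 97.2 CPM in control-FMT, 129, 167 and 125 CPM in busulfan and 154, 82.9 and 99.4 CPM in control hearts. All 6 FMT libraries were below all 3 busulfan libraries. AOS-FMT against busulfan gave -0.66 ± 0.20, with an adjusted p of 0.286, and control-FMT against busulfan -0.54 ± 0.20, with an unadjusted p of 0.0187 and an adjusted p of 0.999.

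The c subunit is encoded by 3 genes that differ in the part of the precursor that is removed on import. Atp5g1 was measured at 1685, 1403 and 1724 CPM in AOS-FMT, 1699, 1756 and 1530.4 CPM in control-FMT, 2077, 1855 and 1907 CPM in busulfan and 2442, 1499 and 1991 CPM in control hearts. Atp5g2 stood at 363, 329 and 345 CPM in AOS-FMT, 349, 334 and 315 CPM in control-FMT, 389, 354 and 385 CPM in busulfan and 391, 313 and 389.5 CPM in control hearts. Atp5g3 was at 914, 785 and 904 CPM in AOS-FMT, 1003, 1031 and 1076 CPM in control-FMT, 1346, 1109 and 1008 CPM in busulfan and 1353, 879.9 and 971 CPM in control hearts. Atp5g1 and Atp5g3 of AOS-FMT hearts were below those of busulfan hearts without overlap, at -0.28 ± 0.17 and -0.41 ± 0.17 with adjusted p of 0.448 and 0.318. Atp5g2 varied least within groups of all 85 genes, with an SD within groups of 0.11 on the log2 scale, and AOS-FMT against busulfan gave -0.12 ± 0.12. The TPM ratio of Atp5g2 to Atp5g3 was 0.472, 0.498 and 0.453 in AOS-FMT hearts, 0.411, 0.387 and 0.345 in control-FMT hearts, 0.344, 0.379 and 0.451 in busulfan hearts, and 0.344, 0.422 and 0.479 in control hearts. AOS-FMT libraries were above control-FMT libraries, at a log2 difference of 0.32, an exact p of 0.1 and an adjusted p of 0.382.

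Among the smaller subunits, Atp5j2, subunit f of the membrane part, had the smallest p of complex V between AOS-FMT and control hearts. Atp5j2 had 797, 650.2 and 707 CPM in AOS-FMT, 792, 758 and 749 CPM in control-FMT, 887, 995 and 821 CPM in busulfan and 1382, 642 and 1096 CPM in control hearts. The groups overlapped, at -0.53 ± 0.21 and an adjusted p of 0.503. Atp5md, a small membrane protein of the synthase, had the smallest p of complex V between control-FMT and control hearts. Atp5md was measured at 330.5, 314 and 331 CPM in AOS-FMT, 347, 271 and 320.4 CPM in control-FMT, 357, 437 and 366 CPM in busulfan and 568, 279 and 492 CPM in control hearts. The control libraries alone spanned from 279 to 568 CPM, and the log2 fold change was -0.51 ± 0.21 with an adjusted p of 0.54. Atp5e, the epsilon subunit of the head, had the lowest log2 fold change of the 85 genes between AOS-FMT and control-FMT hearts. Atp5e stood at 224, 195 and 264 CPM in AOS-FMT, 333, 342 and 249 CPM in control-FMT, 235, 426 and 334 CPM in busulfan and 297, 151 and 453 CPM in control hearts. The libraries of every group overlapped those of the others, and the log2 fold change was -0.44 ± 0.34 with an adjusted p of 0.819.

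The control-FMT against busulfan comparison ran the same way by values, with a smaller median. The 85 genes had a median log2 fold change of -0.20, beside 0.00 for all genes, and 79 were below 0. In 41 genes the groups did not overlap with control-FMT lower, beside 6.58% of all genes. In the fit of all 12 libraries Atp5k alone had an unadjusted p under 0.05 with a lower level, a class of 0.89% of all genes. This count was 38 in a fit of the 6 libraries compared, 21 without control 2, 10 without control 1, 5 without busulfan 3, 2 without control-FMT 1 or AOS-FMT 2, and 0 without busulfan 2 or control-FMT 2. None was called by edgeR, which called 0% of all genes. DESeq2 and limma-voom also called none of the 85, beside 2 and 0 of all 13489 genes. The complex medians were -0.21 for I, -0.07 for II, -0.24 for III, -0.22 for IV and -0.18 for V. Complex II had 0 of 4 genes without overlap and complex V 11 of 17. Without scaling beyond library size the median of the 85 genes was -0.12, beside 0.08 for all genes.

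Between AOS-FMT and control-FMT hearts, which differ in the kind of FMT, the 85 genes had a median log2 fold change of -0.12, beside 0.00 for all genes, with 71 below 0. The direction turned with the atrial covariate, where the median was 0.10 and 11 were below 0. In 14 genes AOS-FMT was lower without overlap, beside 7.29% of all genes, and in Uqcrh and Cox7a2 it was higher without overlap, beside 6.52%. No gene of the 85 had an unadjusted p under 0.05, where 2.35% of all genes did with a lower level. None was called by edgeR, which called 0.0297% of all genes. DESeq2 and limma-voom also called none of the 85, beside 32 and 4 of all 13489 genes. Complex medians lay between -0.09 for V and -0.16 for I. Without AOS-FMT 2 the median of the 85 genes was -0.06. Of the 14 genes, 8 were in complex I, among them Ndufs3 and Ndufs8 of the core, 3 in complex III, 2 in complex IV and 1, Atp5g3, in complex V.

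Busulfan against control hearts, the comparison for the drug without FMT, gave a median log2 fold change of 0.00 for the 85 genes, beside -0.01 for all genes, with 43 below 0. Ndufb4b was the only gene of the 85 whose groups did not overlap, with busulfan lower, beside 6.38% of all genes, and the only one with an unadjusted p under 0.05, beside 5.78% of all genes. None of the 85 was called by edgeR, where 0.0593% of all genes were. DESeq2 and limma-voom also called none of the 85, beside 123 and 5 of all 13489 genes. The largest positive value was 0.35 ± 0.18 for Cox6a2. In complex III it was 0.18 ± 0.21 for Uqcr11 and in complex V 0.33 ± 0.20 for Atp5k. The value turned on the control libraries: the median was 0.19 without control 1 and -0.16 without control 2. An unadjusted p under 0.05 was reached by 8 genes with a higher level in busulfan hearts without control 1, by 14 with a lower level without control 2, and by 0 without busulfan 1.

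Control-FMT against control hearts gave a median log2 fold change of -0.19, beside -0.01 for all genes, with 79 of 85 below 0. In this comparison 1 gene was lower without overlap, beside 4.71% of all genes. An unadjusted p under 0.05 with a lower level was reached by 6, beside 3.74%. The 6 became 49 without control 2, 1 without control 1 or control 3, 3 without control-FMT 1, 2 without control-FMT 2 and 0 without control-FMT 3. They became 2 in a fit of the 6 libraries compared and 29 with the atrial covariate. None was called by edgeR, which called 0% of all genes. DESeq2 and limma-voom also called none of the 85, beside 92 and 0 of all 13489 genes. Without control 1 the median was 0.02. AOS-FMT against control hearts gave a median of -0.30, beside -0.01 for all genes, with 83 below 0. There, 2 genes were lower without overlap, Ndufc1 and Ndufb4b, beside 3.8% of all genes. Of the 85, 17 had an unadjusted p under 0.05 with a lower level, beside 3.44%. The 17 became 70 without control 2, 1 without control 1, 3 without AOS-FMT 2, 5 without AOS-FMT 3, 10 without control 3 and 11 without busulfan 1, busulfan 3 or control-FMT 1. They became 2 in a fit of the 6 libraries compared and 7 without scaling beyond library size. None was called by edgeR, which called 0.0815% of all genes. DESeq2 called Ndufc1 alone, with 0.904% of all genes called, and limma-voom called 0. Without control 1 the median was -0.10, and without control 2 it was -0.48.

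Markers of heart muscle and of other tissue were summed in each library. The cardiomyocyte sums of AOS-FMT, control-FMT and busulfan hearts did not overlap each other, while the atrial sums overlapped between all groups. The 13 cardiomyocyte markers, all detected in every library, summed to 94200 to 127000 CPM in AOS-FMT, 129000 to 137000 CPM in control-FMT, 145000 to 169000 CPM in busulfan and 113000 to 166000 CPM in control hearts. The 12 atrial markers, also all detected, summed to 1980 to 27200 CPM in AOS-FMT, 506 to 4320 CPM in control-FMT, 335 to 3320 CPM in busulfan and 2110 to 19300 CPM in control hearts. Sln, an atrial regulator of the calcium pump, was at 165, 1300 and 819 CPM in AOS-FMT hearts, 21.1, 0.900 and 224 CPM in control-FMT hearts, 1.74, 41.9 and 148 CPM in busulfan hearts, and 124, 831 and 1120 CPM in control hearts. AOS-FMT 2, the lowest library for the subunit genes, had the highest atrial sum. With the average of Bmp10, Myl7, Myl4 and Sln in each library as a covariate, on the log2 scale, the AOS-FMT against busulfan median of the 85 genes was -0.092, the AOS-FMT against control-FMT median 0.10 and the control-FMT against busulfan median -0.21. With this covariate busulfan against control gave -0.21 and control-FMT against control -0.40.

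**Figure D4:**
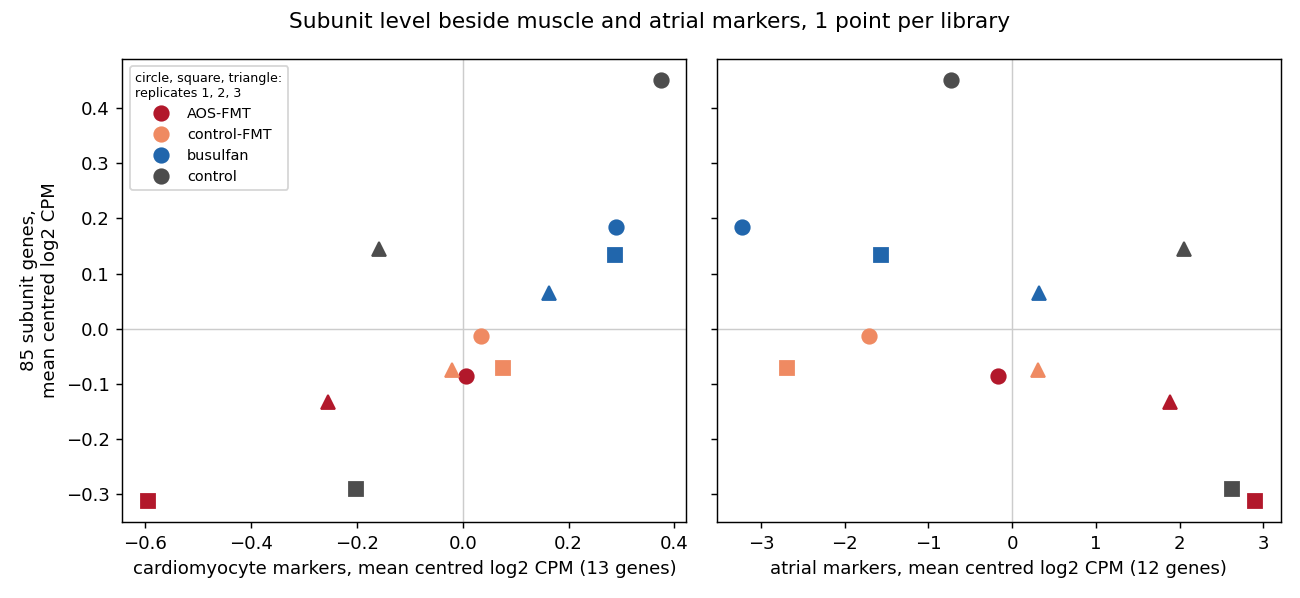
Subunit score of each library (y axis, mean centred log2 CPM of 85 genes) against that of 13 cardiomyocyte markers (left) and 12 atrial markers (right), 1 point per library. AOS-FMT 2 is lowest on the y axis and has the lowest cardiomyocyte score, -0.59, and the highest atrial score, 2.90, and control 1 is the highest library on the y axis.

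The subunit score minus the cardiomyocyte score was 0.10 ± 0.19 in AOS-FMT, -0.08 ± 0.06 in control-FMT, -0.12 ± 0.03 in busulfan and 0.10 ± 0.20 in control hearts (SD, n = 3 each). By this measure each AOS-FMT library was above each busulfan library, but only by a narrow margin beside the SD of 0.19 in AOS-FMT hearts. The 11 fibroblast markers summed to 5230 to 10000 CPM in AOS-FMT, 4560 to 5520 CPM in control-FMT, 3800 to 5160 CPM in busulfan and 5290 to 8700 CPM in control hearts. The 13 macrophage markers summed to 841 to 1220 CPM in AOS-FMT, 655 to 1190 CPM in control-FMT, 540 to 769 CPM in busulfan and 858 to 1160 CPM in control hearts. The 13 liver markers summed to 135 to 847 CPM in AOS-FMT, 66.8 to 112 CPM in control-FMT, 61.2 to 88.8 CPM in busulfan and 60.6 to 154 CPM in control hearts, with Alb at 302 CPM in AOS-FMT 3. Endothelial markers summed to 1420 to 1870 CPM in all libraries, erythroid markers to 3430 to 17500 CPM, and skeletal muscle markers to 211 to 2080 CPM. Acta1 made up nearly all of the skeletal muscle sum, at 202 CPM in AOS-FMT 2, the lowest library, and 2070 CPM in control 1, the highest. Mylpf, Tnnt3, Tnni2 and Actn3 had group means of at most 2.38 CPM. Brown fat markers, whose mitochondria are also dense, summed to 27.3 to 48.7 CPM, and Ucp1 was at 0 CPM in 8 of 12 libraries and at most 0.777 CPM. The part of the cells behind these markers in the subunit values was not tested. The atrial average used as covariate was 6.58, 10.38 and 9.49 in AOS-FMT and 3.74, 1.00 and 6.32 in control-FMT hearts. It was 0.47, 4.11 and 7.29 in busulfan and 6.05, 10.29 and 9.88 in control hearts. As this average ran in part with group, the covariate fit cannot separate it from group.

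Many subunit mRNAs are short, and the median of all short genes was below 0 in 5 of the 6 comparisons. By the effective length that the deposited counts and FPKM imply, 42 of the 85 genes were below 405 bases, their median, and 43 were not. This length was 58.2 bases for Atp5k, so it is not that of the whole mRNA. In AOS-FMT against busulfan hearts the shorter had a median log2 fold change of -0.34 and the longer -0.25, beside -0.13 over all 301 genes of the shorter class and 0.01 over the 13188 longer ones. In control-FMT against busulfan hearts the medians were -0.25 and -0.11, beside -0.13 and 0.00. In control-FMT against control hearts they were -0.24 and -0.11, beside -0.24 and -0.01, and 85.4% of all short genes were below 0. The shorter subunit genes had a median of -0.36 in AOS-FMT against control hearts, beside -0.26 for all short genes, -0.02 in busulfan against control, beside -0.14, and -0.10 in AOS-FMT against control-FMT, beside 0.01. By their medians they were near all short genes in control-FMT against control hearts, above them in busulfan against control hearts, and below them in the other 4 comparisons. The 301 short genes include the 42 shorter subunit genes themselves.

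**Figure D5:**
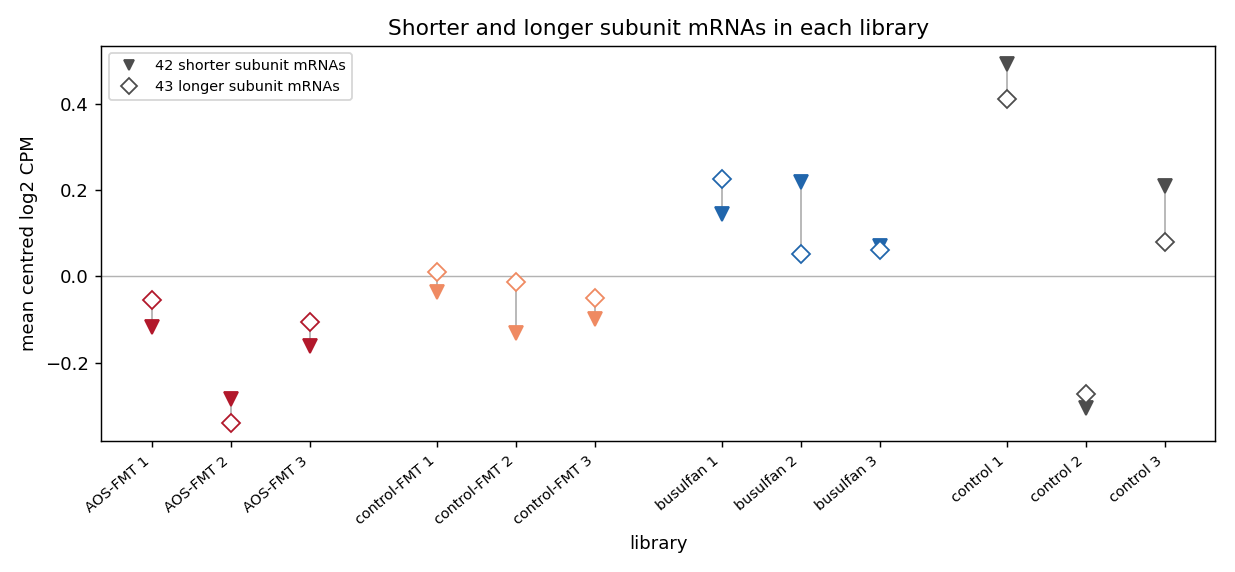
Mean centred log2 CPM (y axis) of 42 subunit mRNAs of shorter and 43 of longer effective length in each library (x axis). Both classes are below 0 in all AOS-FMT libraries and above 0 in all busulfan libraries, and they differ most in busulfan 2, by 0.17.

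The genes around the complexes were counted in the same way. Of the 48 listed assembly factors, which build the complexes and insert their cofactors, 47 were tested. In AOS-FMT against busulfan hearts their median log2 fold change was -0.18, with 44 below 0 and 0 called. An unadjusted p under 0.05 with a lower level was reached by 11 of the 47, beside 5.85% of all genes. The 3 with the smallest p there were Bcs1l, which inserts the Rieske protein into complex III, at -0.39 ± 0.11, Uqcc3, a complex III factor, at -0.45 ± 0.16, and Cox11, a copper factor of complex IV, at -0.46 ± 0.17, with adjusted p of 0.279, 0.297 and 0.306. In AOS-FMT against control-FMT hearts the median was -0.14, with 42 below 0 and 0 called, and in busulfan against control hearts it was -0.03, with 25 below 0 and 0 called. In control-FMT against control hearts Pet100, a complex IV factor, had 9.07 ± 0.899 CPM in control-FMT and 13.7 ± 2.53 CPM in control hearts, at -0.59 ± 0.17 and an adjusted p of 0.382.

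The 14 other subunits and partners include cytochrome c, the ADP/ATP carriers and uncoupling proteins. Their median in AOS-FMT against busulfan hearts was -0.29, with 12 below 0 and 0 called. Of the 14, 3 had an unadjusted p under 0.05 with a lower level, beside 5.85% of all genes. Chchd10, a protein of the space between the mitochondrial membranes, had the smallest p, with 1400 ± 198 CPM in AOS-FMT and 2050 ± 70.2 CPM in busulfan hearts, a log2 fold change of -0.55 ± 0.17 and an adjusted p of 0.284. Ndufab1, the mitochondrial acyl carrier protein that is also a complex I subunit, was at 620 ± 52.3 CPM in AOS-FMT and 836 ± 99.0 CPM in busulfan hearts, with -0.43 ± 0.17 and an adjusted p of 0.310. In AOS-FMT against control hearts Atpif1, the inhibitor of the synthase, gave -0.55 ± 0.19 and an adjusted p of 0.401.

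The 24 regulators of respiration had a median of -0.10 in AOS-FMT against busulfan hearts, with 20 below 0 and 0 called. Of the 24, 2 had an unadjusted p under 0.05 with a lower level, beside 5.85% of all genes. Polrmt, the RNA polymerase of mitochondria, had the smallest p, with 38.4 ± 2.71 CPM in AOS-FMT and 52.5 ± 1.74 CPM in busulfan hearts, a log2 fold change of -0.45 ± 0.10 and an adjusted p of 0.211. Against control-FMT hearts, at 50.7 ± 1.90 CPM, AOS-FMT gave -0.40 ± 0.10 with an adjusted p of 0.546. Busulfan against control, at 42.2 ± 3.88 CPM in control hearts, gave 0.31 ± 0.10 with an adjusted p of 0.299. Esrra, one of the ERR factors, was at 169 ± 17.8 CPM in AOS-FMT and 207 ± 20.0 CPM in busulfan hearts, with -0.30 ± 0.14 and an adjusted p of 0.365. Medians of the 24 in the other comparisons ran from -0.14 for AOS-FMT against control-FMT to 0.08 for busulfan against control, with 0 called in each.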

How the data were processed

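The authors deposited estimated counts per gene, per the file headers, together with TPM and FPKM values, which they normalized for length and depth before deposit. Bowtie 0.12.2 and the build mm10 are named per the submitters' processing notes. Neither the counting tool and its use of strand nor the annotation is given in the sources used here, so reads of close gene copies may be split between them. Of the estimated counts, 94.7% to 95.3% per library were whole within 1e-09, and all were rounded.

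filterByExpr kept 13489 of 17536 genes. After TMM scaling (factors 0.908 to 1.08), edgeR 4.0.16 (R 4.3.3) fitted its quasi-likelihood model, in robust form, to all 12 libraries together with a term for group alone. The biological coefficient of variation came to 18.6%. The median SE of the subunit genes' log2 fold changes was 0.180 in busulfan against control. All genes tested entered the Benjamini-Hochberg adjustment, and an adjusted p under 0.05 was a call. DESeq2 1.42.0, limma-voom (limma 3.58.1), other scaling, no filter, fits of 6 libraries, a replicate block, an atrial covariate (Bmp10, Myl7, Myl4 and Sln averaged as log2 CPM) and leaving out each library were alternatives. The steps were tested on simulated data. Replicates of a group differed beyond sampling noise, at 8.88 to 71.5 for chi-square over degrees of freedom. Scores use log2 CPM with a prior count of 2.

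TPM served for comparing genes with each other and for 7 isoform ratios, tested by exact permutation. Effective gene lengths were taken from the deposited counts and FPKM, and promoter sequences and positions from RefSeq on GRCm38.p6.

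The rule for named genes took fixed core subunits and isoform sets, the member with the smallest p of each complex in each comparison, called members and extremes of stated ranges. Of other lists it took the smallest p of a comparison. Ndufb4, which shares its name with Ndufb4b, and the genes behind a cell marker sum were named after their values were seen. The genes, lists and tests were chosen with earlier results of these data known. The values of 1 gene are not reported here.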

Additional observations from a re-analysis of the deposited data

How the results depend on the processing

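No gene of the 85 was called by edgeR under any alternative setting in any comparison, and limma-voom called 0. DESeq2 called 1 gene in AOS-FMT against busulfan, Cox6a2, and 1 in AOS-FMT against control, Ndufc1. The median log2 fold change of the 85 genes moved as follows. Without scaling beyond library size it was -0.17 in AOS-FMT against busulfan and -0.12 in control-FMT against busulfan, where the median of all genes stood at 0.14 and 0.08. With the atrial covariate it was -0.092 in AOS-FMT against busulfan and 0.10 in AOS-FMT against control-FMT. Leaving out 1 library gave -0.34 to -0.24 in AOS-FMT against busulfan, -0.25 to -0.17 in control-FMT against busulfan, -0.20 to -0.06 in AOS-FMT against control-FMT, -0.48 to -0.10 in AOS-FMT against control, -0.37 to 0.02 in control-FMT against control and -0.16 to 0.19 in busulfan against control. The causes were not tested. Calls over all genes in AOS-FMT against busulfan numbered 6, 131 with DESeq2 and 0 in a fit of the 6 libraries alone.

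Replicate numbers were shared by the groups, but the labels do not say that a number marks a shared litter, batch or day. The deviations of same-numbered libraries correlated at -0.161 to 0.454, with a mean of 0.115 and 10 of 18 pairs over 0.1, beside a mean of -0.058 and 8 of 36 pairs over 0.1 for different numbers. As the labels state no pairing and not every same-numbered pair was over 0.1, the main fit did not pair the libraries. Of the 12 libraries, 2 matched best with their own number in every other group. With 3 libraries a group, these counts cannot decide whether the numbers mark a pairing. With the replicate number as a block, the median was -0.30 in AOS-FMT against busulfan, -0.21 in control-FMT against busulfan, -0.14 in AOS-FMT against control-FMT, -0.29 in AOS-FMT against control, -0.17 in control-FMT against control and 0.02 in busulfan against control, and 0 of the 85 genes were called. Calls over all genes with this block were 14, 0, 6, 25, 7 and 10 in the same order, beside 6, 0, 4, 11, 0 and 8 without it.

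With 3 libraries a group, a log2 fold change of a subunit gene had a median SE of 0.180.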

Other observations

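The replicate numbered 1 had the highest score of the 85 genes in all 4 groups, and 79 of the 85 genes had the control libraries in the order control 1, control 3, control 2 from high to low. This order was not counted over all genes. The median within-group SD of log2 CPM was 0.24 for the subunit genes and 0.20 for all genes tested.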
